A study of Mus musculus with 6 samples.

Results

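The 8 genes described here encode the core of the activator protein 1 (AP-1) transcription factor: Fos, Fosb, Fosl1, Fosl2, Jun, Junb and Jund, together with Atf3, a stress-inducible relative that pairs with JUN proteins. Described for each gene were the chromatin regions that the authors' annotation assigned to its symbol in 4 tables of CUT&Tag signal. There were 40 such entries among 456310, which correspond to 31 distinct regions, and 7 of the 8 genes had at least 1. CUT&Tag cuts and tags DNA where an antibody is bound, so that reads gather where its target sits on chromatin.

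The data were 6 libraries from primary mouse cardiac fibroblasts, isolated from heart. They form a T set and an S set, named after the letter in their titles, with 1 library for NC, 1 for TGF-b, and 1 for TGF-b plus an siRNA. TGF-b drives the change of fibroblasts into contractile, matrix-secreting myofibroblasts. The study profiled TAZ and SRF, and the labels do not give the antibody of either set. The labels name the siRNA treatment TGF-b+SiTAZ in the T set and TGF-b+SiSRF in the S set, whereas the study describes knockdown of Piezo2, a stretch-gated ion channel, so the siRNA is called only siRNA below. The design text of the series describes Tet3 knockout by a Cre virus before TGF-b, which none of the 6 sample labels mentions, so whether it applies to these cells is not known. Libraries of chromatin do not measure transcripts, so the knockdown was not checked. The study's methods give a C57BL/6J background for its mouse lines, and the age and sex of the animals that gave these cells are not stated in the sources used here. With 1 library per treatment there is no replicate error, no treatment was tested, and every interval below is a 95% interval that covers counting error only.

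AP-1 is a dimer of leucine zipper proteins. JUN proteins pair with each other or with FOS proteins, whereas FOS proteins need a JUN partner. Many of these genes are immediate-early genes that serum and growth factors switch on through SRF and its ternary complex partners, and AP-1 is known to sit beside TEAD factors, the DNA-binding partners of YAP and TAZ, at many enhancers. In fibroblasts AP-1 is known for its part in matrix, protease and wound-response genes.

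The start sites of 4 of the genes are shown first, because measured regions of Jun and Atf3 lie across them, an S set region of Fosb lies within the window just before its start, and Fos is the member to which no region was assigned. Each run is a RefSeq promoter of GRCm38.p6, from 250 bases before to 50 after the start, 5′ to 3′ on the gene's own strand, and capitals mark the ETS core GGAAGT where it occurs.
Jun: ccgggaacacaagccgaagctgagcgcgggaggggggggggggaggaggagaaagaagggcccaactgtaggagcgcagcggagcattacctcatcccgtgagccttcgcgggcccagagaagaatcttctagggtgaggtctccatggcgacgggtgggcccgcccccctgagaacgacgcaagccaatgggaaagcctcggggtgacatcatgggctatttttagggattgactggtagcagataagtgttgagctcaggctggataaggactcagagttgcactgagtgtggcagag
Atf3: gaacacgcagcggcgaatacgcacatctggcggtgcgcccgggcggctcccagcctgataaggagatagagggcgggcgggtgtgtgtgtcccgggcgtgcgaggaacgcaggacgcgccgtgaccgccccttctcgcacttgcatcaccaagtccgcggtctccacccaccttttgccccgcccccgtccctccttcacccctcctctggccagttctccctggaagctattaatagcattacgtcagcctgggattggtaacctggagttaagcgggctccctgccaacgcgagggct
Fosb: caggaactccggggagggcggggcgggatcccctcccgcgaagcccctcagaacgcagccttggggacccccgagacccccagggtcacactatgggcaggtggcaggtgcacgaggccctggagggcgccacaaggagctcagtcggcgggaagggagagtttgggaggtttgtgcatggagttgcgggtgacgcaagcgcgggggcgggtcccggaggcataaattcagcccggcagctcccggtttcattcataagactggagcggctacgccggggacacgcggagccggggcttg
Fos: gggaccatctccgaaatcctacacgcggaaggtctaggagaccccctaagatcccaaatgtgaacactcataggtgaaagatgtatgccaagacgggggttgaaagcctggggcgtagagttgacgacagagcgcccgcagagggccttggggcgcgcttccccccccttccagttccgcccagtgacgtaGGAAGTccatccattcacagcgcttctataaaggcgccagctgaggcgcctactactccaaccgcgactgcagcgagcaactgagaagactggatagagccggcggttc
They lie at chr4:95052173-95052472 (Jun, minus strand), chr1:191183284-191183583 (Atf3, minus strand), chr7:19309996-19310295 (Fosb, minus strand) and chr12:85473640-85473939 (Fos, plus strand) of that build. The tables use another build, taken as GRCm39 from the study's methods, so coordinates below are not comparable with these. RefSeq held a promoter for 7 of the 8 genes, and none was matched for Fosl1. Within that build, the starts that correspond to the tables' gene models lay 0 bp (Jun), 7 bp (Atf3) and 6 bp (Fosb) from the RefSeq starts. Atf3 and Fosb each have a second start in those models, 34706 and 445 bp from the RefSeq start, and the T set Fosb region is measured from that second start. The starts of Fosl2 and Jund lay 671 and 1210 bp away, so their promoters are not printed.

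Motifs of 5 kinds were searched on both strands of these windows: the CArG box bound by SRF, the TEAD motif CATTCC, the AP-1 motif TGANTCA, the cyclic AMP response element TGACGTCA and the ETS core GGAAGT of the ternary complex factors. Fos held the ETS core 59 bases before its start on the gene's strand, and Junb held it 23 bases before its start on the opposite strand. The other 5 promoters held none of the 5 motifs in these letters. Over all 32544 RefSeq promoters, 23.7% held the ETS core, 14.6% the TEAD motif, 7.79% the AP-1 motif, 1.8% the cyclic AMP response element and 1.64% the CArG box. A match is a description of letters and not a bound site, and a missing match says nothing of the factor. Sequence more than 250 bases before a start was not searched, so a CArG box or ETS core there would be missed.

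The value of a region is a normalized read density, that is, reads plus 1 per kb in a window of 2 kb around its midpoint, rescaled by the authors so that peaks called in both libraries of a table centre on equal density. Whole reads were recovered from these densities, and they are given as the depth of each value. Because every window has the same length, reads of different regions in 1 library can be set side by side. Called regions in all held a median of 7 to 13 reads, and the T set had 53121 to 134584 called regions per library against 25891 to 28738 in the S set. A region enters a table only when a peak was called in 1 of its libraries, so the absence of a region is not a value of 0. A region called in 1 library only entered through the library where it tends to be high. For many such regions, though not all, the median of all regions called in the same way is given. The median log2 ratio of all regions was not 0 but -0.65 and 0.97 in the T set tables and -0.20 and -0.21 in the S set tables, and ratios below are set against these medians. As a check of the labelled cell type, 5 of 8 fibroblast marker genes had a T set region within 1 kb of a transcription start site (TSS), as did 4 of 5 cardiomyocyte, 2 of 4 endothelial, 2 of 4 immune and 2 of 4 mural markers. In the S set these numbers were 2, 1, 0, 0 and 2. Association with chromatin is not expression, so these counts do not tell the cell types apart.

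The regions were uneven between genes. Atf3 had 11 distinct T set regions and 4 in the S set, spread from 15464 bp upstream to 15151 bp downstream of a TSS, most of them in introns. Fosl2 had 6 and 2. Junb had 2 and 1, Fosb 1 and 1, and Jun, Jund and Fosl1 had 1 each, all in the T set. The share of AP-1 gene regions within 1 kb of a TSS, beside that of all regions, was 56.2% against 10.2% in the T set table of TGF-b and NC, 42.9% against 9.39% in that of siRNA and TGF-b, and 33.3% against 9.97% and 42.9% against 13.4% in the matching S set tables. The S set shares rest on 3 and 7 regions.

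**Figure D1:**
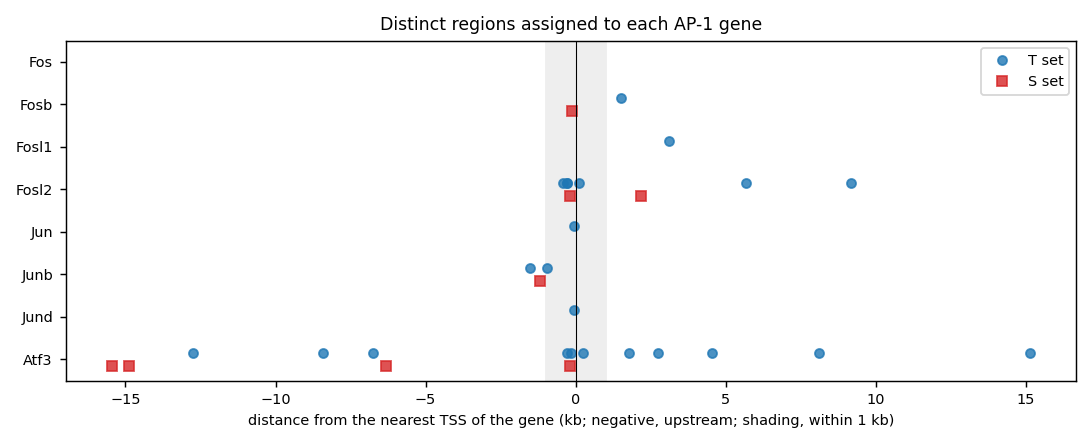
Distance of each distinct region from the nearest TSS of its gene in kb (x axis) for the 8 AP-1 genes (y axis), T set as circles and S set as squares, with shading within 1 kb. Regions of Jun and Jund sit at the TSS, those of Atf3 reach from 15464 bp upstream to 15151 bp downstream, and Fos has none.

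The 2 sets met at few places. A T set and an S set region overlapped by at least 1 bp at the TSS of Atf3 (200 bp) and at the TSS of Fosl2 (244 and 91 bp). That is 3 of the 23 regions measured in the T set (13%) and 2 of the 8 in the S set (25%). Over all regions the shares were 4.71% of the T set and 17.3% of the S set. At Junb the S set region lay between the T set regions and touched neither.

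The first comparison asks where T set signal differed between fibroblasts given TGF-b and NC fibroblasts. Signal around the TSS of the JUN genes and of Fosl2 was higher in the TGF-b library, while the regions away from the TSS, most of them at Atf3, were mixed. Of the 16 regions, 5 were at least 2-fold higher, where the background share over all regions was 17.3%, and 5 were at least 2-fold lower, where it was 42.1%. The median log2 ratio was 0.35 against -0.65 over all 170890 regions. Centring on that median gave 8 higher and 1 lower.

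Within 1 kb of a TSS, 4 of 9 regions were at least 2-fold higher (21.4% of all such regions) and 1 was at least 2-fold lower (20.9%). Their median log2 ratio was 0.87, against 0.09 over all regions within 1 kb. The interval lay above 0 in 5 of the 9 and below 0 in 0, against 24.6% and 18.4% of all such regions. Of the 9, 3 were called in TGF-b only, with 2 at least 2-fold higher and all 3 intervals above 0. Of all 5206 regions within 1 kb so called, 2696 were at least 2-fold higher and the median was 1.03. Of the other higher ones, 1 was called in NC only and 1 in both libraries. Some of the 9 regions share reads, since their 2 kb windows overlap. With such regions counted once, by the one of higher density, 3 of 7 places were at least 2-fold higher and 0 at least 2-fold lower, with the same median of 0.87.

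Jun encodes the JUN protein that can form AP-1 alone or with any FOS partner. Its region, chr4:94940407-94940633, lies across the TSS and held 29 reads in the NC library and 69 in the TGF-b library. Its density was 15.1 and 34.7, a log2 ratio of 1.20 (0.61 to 1.85). Peaks were called there in both libraries, and the regions called in both had a median log2 ratio of 0.00, as the authors' scaling sets it, and those of them within 1 kb of a TSS had 0.32. Of all T set regions within 1 kb of a TSS, 92.9% held fewer reads.

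Junb, often a weaker activator than JUN, had its stronger region 970 bp upstream of the TSS at chr8:85706243-85706391. There were 39 NC reads and 74 TGF-b reads, which gave a log2 ratio of 0.87 (0.33 to 1.44). A second region 1538 bp upstream gave 32 and 60 reads and also 0.87 (0.27 to 1.5). The windows of both overlap, with midpoints 568 bp apart, so they share reads and are not separate evidence. The first was called in TGF-b only and the second in NC only, and regions so called had medians of 1.41 and -1.27. Regions within 1 kb of a TSS called in TGF-b only had 1.03.

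Jund, which encodes the most steadily expressed JUN protein in many cells, had 1 region 65 bp upstream of its TSS, chr8:71151482-71151586. There were 13 NC reads and 30 TGF-b reads, and the log2 ratio was 1.20 (0.33 to 2.18). The peak was called in NC only, although TGF-b held more reads. Regions called in NC only had a median log2 ratio of -1.27, and those of them within 1 kb of a TSS had -0.63. The Jund value has the opposite sign to both, and 2370 of the 8765 such regions within 1 kb also lay above 0.

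Fosl2 encodes FRA-2, a FOS protein known from mice in which its excess causes fibrosis. Its region 286 bp upstream of the TSS, chr5:32292738-32292981, held 35 NC reads and 80 TGF-b reads, with a log2 ratio of 1.13 (0.59 to 1.73). The neighbouring region in the 5′ UTR, 111 bp downstream, gave 33 and 79 reads and 1.20 (0.64 to 1.81), and its window overlaps the first. At a second Fosl2 start, a region 423 bp upstream held 17 and 11 reads, and its interval included 0 (-0.50, -1.61 to 0.52). It was called in NC only, and regions within 1 kb of a TSS so called had a median of -0.63. The higher signal in TGF-b was thus measured at the start that carried more reads. Both stronger regions were called in TGF-b only, and regions so called had a median of 1.41 over the whole table and 1.03 within 1 kb of a TSS.

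Fosl1 encodes FRA-1, a FOS protein that lacks a strong activation domain of its own. Its only region was an intronic one 3096 bp downstream of the TSS, with 29 NC reads and 10 TGF-b reads. The log2 ratio was -1.38 (-2.49 to -0.46), opposite in sign to Fosl2. It was called in NC only, where the median over all regions was -1.27.

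Atf3, a repressor or activator depending on its partner, held the region with the highest mean density of the 8 genes in this comparison. Its TSS region, chr1:190915449-190915932, held 57 NC reads and 76 TGF-b reads. The log2 ratio of 0.35 (-0.13 to 0.85) had an interval that included 0, although it lay above the table's median of -0.65. Centred on that median the value was 1.01, so whether this region differs depends on the scaling. The other 7 Atf3 regions held 1 to 13 reads in each library. The lowest, called in NC only, was 4547 bp downstream with 10 NC reads and 1 TGF-b read, at -2.27 (-5.74 to -0.54). With the TGF-b reads set to the floor of 3 that value was -1.27. The 2 regions within 1 kb of a second Atf3 start gave -1.12 (-2.89 to 0.25) and -0.87 (-2.47 to 0.46). Both were called in NC only, and regions within 1 kb of a TSS so called had a median of -0.63.

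The second comparison asks how T set signal differed between TGF-b with siRNA and TGF-b alone. Around the TSS of Fosl2, Junb and Jun the signal was lower with siRNA, while thin regions of Atf3 and Fosl2 away from the TSS were higher. Both T set comparisons use the same TGF-b library, so a high or low count in that library enters both with opposite sign, and the values are given side by side only. Of 14 regions, 7 were at least 2-fold higher and 3 at least 2-fold lower. The background shares were 49.7% and 16.2%, and the median was 0.86 against 0.97 over all 180118 regions. These counts depend on the scaling and on shallow regions: centring on the median of all regions gave 4 higher, 5 lower and a median of -0.11, and regions with at least 10 reads gave 3 higher and a median of -0.05.

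Within 1 kb of a TSS, 0 of 6 regions were at least 2-fold higher (25.1% of all such regions) and 3 were at least 2-fold lower (22.2%). The median was -1.0 against 0.03, and the interval lay below 0 in 4 of 6, against 22.4%. All 4 of these, with all 3 of the lower regions among them, were called in TGF-b only. Of all 5665 regions within 1 kb so called, 2886 were at least 2-fold lower and 2629 had an interval below 0, with a median of -1.03. The low values are therefore given as a description. With overlapping windows counted once, 0 of 5 places were at least 2-fold higher and 2 at least 2-fold lower, with a median of -0.84. Beyond 1 kb, 7 of 8 regions were at least 2-fold higher (52.2% of all such regions) and 0 at least 2-fold lower (15.6%), and 5 of those 8 held 3 or fewer reads in 1 library. Of these 8, 7 were called in siRNA only, and regions so called had a median of 1.67 over all those beyond 1 kb, so the high values are given as a description. With reads of 3 or fewer set to 3, the median over all 14 regions was 0.35 against 0.76.

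Jun held 29 NC reads, 69 TGF-b reads and 27 siRNA reads, and its siRNA to TGF-b log2 ratio was -0.84 (-1.51 to -0.24). Junb at 970 bp upstream held 39, 74 and 23 reads, and its ratio was -1.16 (-1.87 to -0.54). Fosl2 at 286 bp upstream held 35, 80 and 20 reads, with -1.47 (-2.22 to -0.82). In all of these the TGF-b library had the most reads. The overlapping Fosl2 region in the 5′ UTR held 33, 79 and 16 reads, with -1.76 (-2.59 to -1.06). All 4 were called in TGF-b and not in siRNA, and regions so called had a median of -1.42 over the table and -1.03 within 1 kb of a TSS. The Atf3 TSS region held 57, 76 and 47 reads, and its interval again included 0 (-0.20, -0.73 to 0.31). It lay below the table's median of 0.97, and centring on that median gave -1.17.

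**Figure D2:**
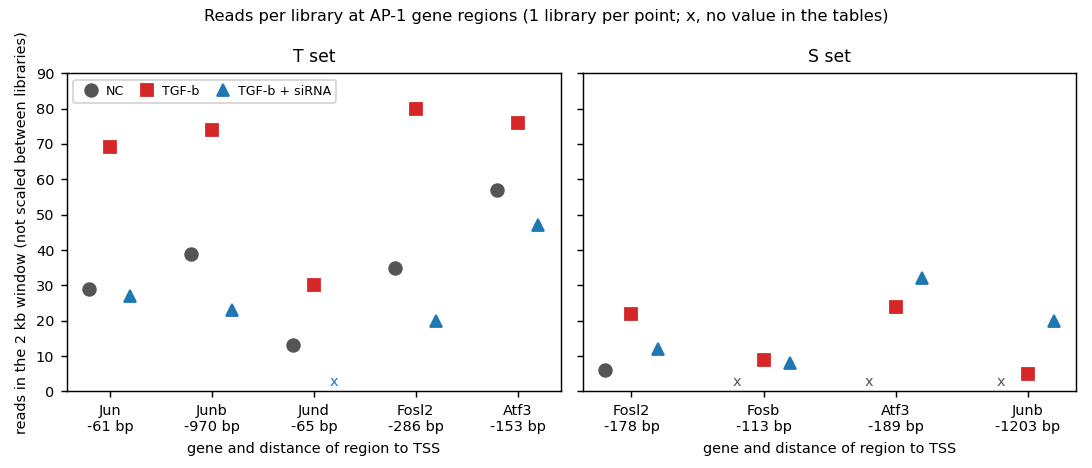
Reads in the 2 kb window (y axis, from 0, not scaled between libraries) at 9 AP-1 gene regions (x axis, with distance to the TSS), 1 library per point: NC circles, TGF-b squares, TGF-b with siRNA triangles, and an x where the tables hold no value. At the 5 T set regions drawn, the TGF-b square is the highest point, from 30 reads at Jund to 80 at Fosl2 (the intronic Fosl1 region, with 29 NC and 10 TGF-b reads, is not drawn), whereas at Atf3 and Junb of the S set the siRNA triangle is the highest.

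Jund had no entry in the siRNA table and is not compared there. Fosb, an immediate-early FOS gene, had an exonic T set region 1524 bp downstream of its second TSS with 15 TGF-b reads and 13 siRNA reads. Its ratio was 0.27 (-0.79 to 1.31). The sign of this value turned with centring on the median of all regions (-0.70) and when taken without the authors' scaling line (-0.19). The region was called in siRNA only, and regions beyond 1 kb of a TSS so called had a median of 1.67.

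Among the regions away from the TSS, Atf3 at 1789 bp downstream held 10 NC reads, 12 TGF-b reads and 30 siRNA reads. It was called in siRNA only in this table. The siRNA to TGF-b log2 ratio was 1.72 (0.84 to 2.74) and the TGF-b to NC one 0.34 (-0.81 to 1.54). In the 3′ UTR of Fosl2, 9166 bp downstream, TGF-b held 0 reads and siRNA 13, which is at least 4.76-fold higher against a floor of 3 reads in the TGF-b library. That floor takes the 13 reads as exact, and the counting interval of the log2 ratio, which covers both libraries, starts at 2.20. In an Atf3 intron 2733 bp downstream the reads were 0 and 8, at least 3.05-fold higher against the same floor, with an interval that starts at 1.5 on the log2 scale. Both were called in siRNA only. The remaining 4 regions beyond 1 kb, at Atf3 and Fosl2, held 0 to 4 reads in TGF-b. In this comparison the interval lay below 0 at the TSS regions of Jun and Junb and at the stronger start of Fosl2. It included 0 at the Atf3 TSS region. Those of Jun, Junb and Fosl2 were called in TGF-b only, and that of Atf3 in both libraries. All regions within 1 kb of a TSS so called had medians of -1.03 and -0.21, so the contrast is a description only.

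**Figure D3:**
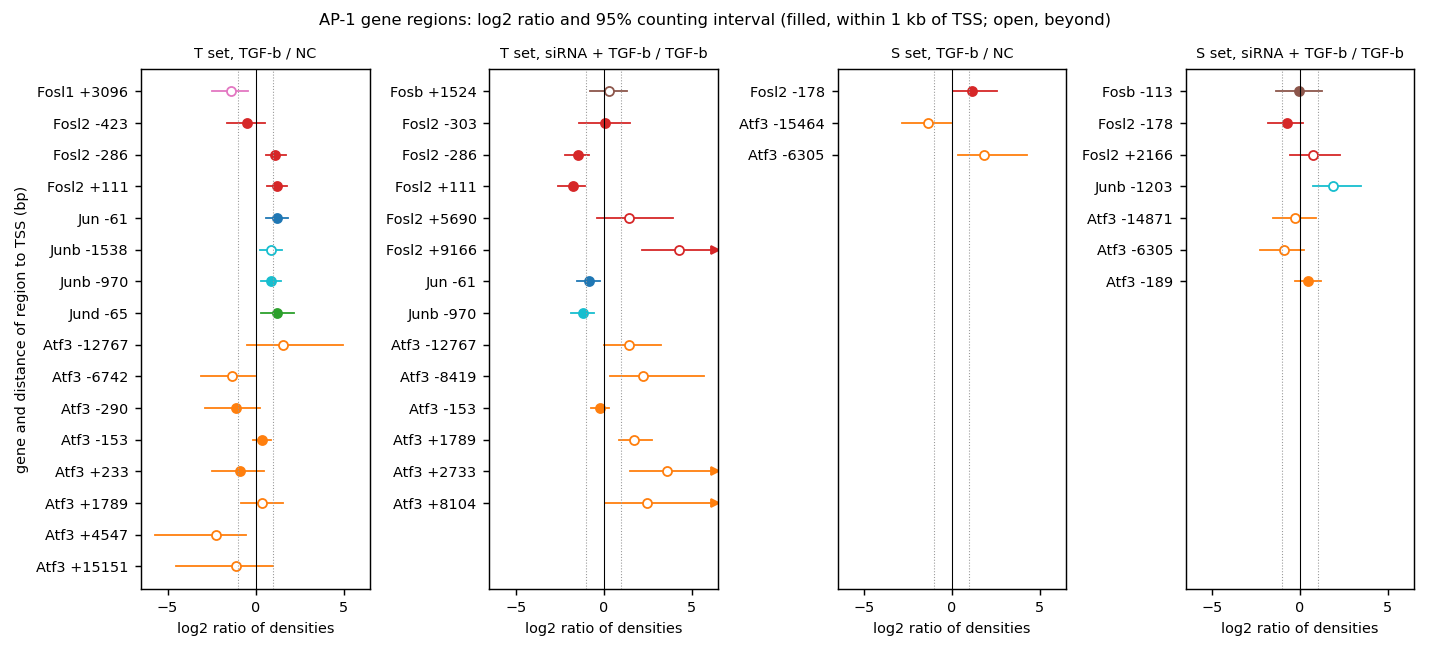
Log2 ratio of normalized densities (x axis) with its 95% counting interval for every AP-1 gene region (y axis, gene and distance to the TSS in bp) in the 4 comparisons; filled points lie within 1 kb of the TSS, open points beyond, dotted lines mark 2-fold, and an arrow marks an interval with no upper bound. In the T set the filled points of Fosl2, Jun and Junb lie right of 0 for TGF-b over NC and left of 0 for siRNA over TGF-b, with 1 exception for each comparison at the second Fosl2 start.

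In the S set only 3 regions of 2 genes entered the table of TGF-b and NC. Of these, 2 were at least 2-fold higher (17.4% of all 52723 regions) and 1 was at least 2-fold lower (26.7%). Fosl2 had a region across its TSS, chr5:32292728-32293207, with 6 NC reads and 22 TGF-b reads. Its log2 ratio was 1.15 (0.04 to 2.57). Like the overlapping T set region it was called in TGF-b only, and S set regions so called had a median of 0.70, so a higher value in both sets is no independent support. Of the S set regions within 1 kb of a TSS, 52.2% held fewer reads. Atf3 had 2 intronic regions, at 6305 bp upstream with 2 and 15 reads (1.82, 0.34 to 4.29) and at 15464 bp upstream with 11 and 6 (-1.36, -2.84 to -0.07). The first was called in TGF-b only and the second in NC only, where the median of regions so called was -1.02.

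For siRNA with TGF-b over TGF-b, 7 S set regions of 4 genes were measured, and 1 was at least 2-fold higher (15.1% of all 52579 regions) and 0 at least 2-fold lower (27.8%). The median was -0.05 against -0.21. Fosl2 held 22 TGF-b reads and 12 siRNA reads (-0.75, -1.80 to 0.19). Atf3 at its TSS, chr1:190915627-190915826, held 24 and 32 (0.44, -0.30 to 1.21). Fosb at 113 bp upstream of its TSS held 9 and 8 (-0.05, -1.39 to 1.26), and centring on the median of all regions turned that sign (0.17). In each of these the interval included 0, so a difference was not detectable at this depth. Fosl2 was called in TGF-b only, and Atf3 and Fosb in siRNA only. All S set regions within 1 kb of a TSS so called had medians of -0.76 and 0.48.

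The interval excluded 0 only at Junb. Its S set region 1203 bp upstream, chr8:85706489-85706612, held 5 TGF-b reads and 20 siRNA reads, so that the log2 ratio was 1.90 (0.73 to 3.46). It was called in siRNA only, and S set regions so called had a median of 0.54. This region lies 233 bp, midpoint to midpoint, from the T set region whose ratio in the same contrast was -1.16, which was called in TGF-b only. The other 3 S set regions gave -0.90 (-2.26 to 0.25), -0.28 (-1.53 to 0.89) and 0.76 (-0.56 to 2.25), at Atf3 6305 and 14871 bp upstream and at Fosl2 2166 bp downstream.

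**Figure D4:**
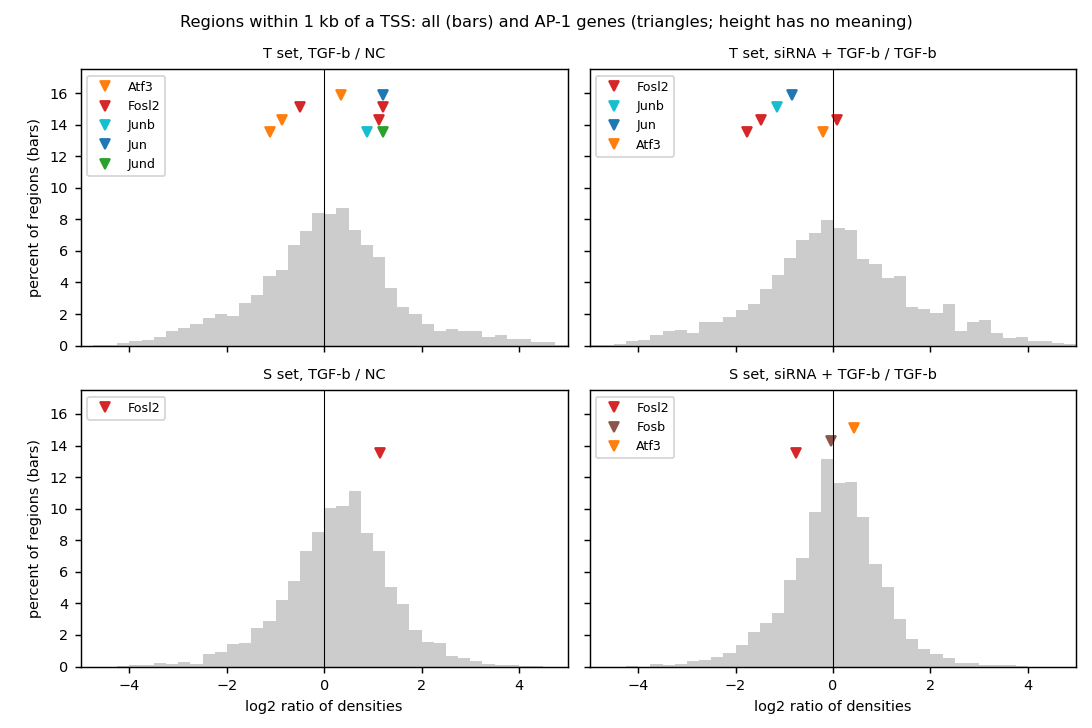
Log2 ratio of normalized densities (x axis) of all regions within 1 kb of a TSS (bars, percent of regions on the y axis) and of the AP-1 gene regions (triangles, whose height has no meaning) in the 4 comparisons. For TGF-b over NC in the T set 4 of 9 triangles lie at or beyond 2-fold on the right and 1 on the left. The shares of all such regions were 21.4% and 20.9%. For siRNA over TGF-b 3 of 6 lie at or beyond 2-fold on the left (22.2%) and 0 on the right (25.1%). Overlapping windows are drawn separately, and counted once the numbers are 3 of 7 on the right and 2 of 5 on the left.

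No region carried the name Fos, the founding FOS gene and a classical SRF target. In RefSeq's gene order Fos lies between the noncoding genes Gm40477 and Gm32296, and in the tables the interval between these is chr12:85483023-85576372. It held 8 regions in each T set table, and 4 and 5 in the S set tables, of which 3, 6, 4 and 5 were assigned to no gene and the rest to noncoding genes, Gm40477 among them. The position of Fos within it was not determined here, because no genome of the tables' build was used. So the absence of the name does not show that signal near Fos is absent. For TGF-b over NC, 1 of the 8 T set regions in the interval was at least 2-fold higher and 1 at least 2-fold lower, as were 2 and 2 of the 4 S set regions. For siRNA over TGF-b these numbers were 2 and 2 of 8, and 1 and 1 of 5. The background shares over all regions were 17.3% and 42.1%, and 17.4% and 26.7%, for TGF-b over NC, and 49.7% and 16.2%, and 15.1% and 27.8%, for siRNA over TGF-b. The regions given next were chosen after their values were seen, from both directions. The first 2 were called in both NC and TGF-b. The T set region chr12:85518847-85519005 assigned to Gm56522 held 9 NC reads, 27 TGF-b reads and 12 siRNA reads. Its log2 ratios were 1.56 (0.59 to 2.72) for TGF-b over NC and -0.64 (-1.66 to 0.26) for siRNA over TGF-b. The unassigned T set region chr12:85501691-85502298 held 44, 83 and 77 reads, with 0.85 (0.34 to 1.39) and 0.38 (-0.06 to 0.83). The S set region chr12:85544489-85544857, called in TGF-b but not in NC, held 8, 34 and 17 reads, with 1.40 (0.45 to 2.62) and -0.91 (-1.78 to -0.12). In the other direction, S set regions at chr12:85551733-85551883 and chr12:85566445-85566599 were lower in TGF-b than in NC, with 23 and 12 reads (-1.44, -2.48 to -0.51) and with 13 and 7 reads (-1.38, -2.75 to -0.19). The T set region chr12:85517830-85517901, assigned to Gm56522, held 8 NC reads and 0 TGF-b reads. All 3 were called in NC only.

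The wider AP-1 pathway was described by a list of 43 genes, each by its strongest region within 1 kb of the TSS. In the T set 30 had such a region for TGF-b over NC, of which 4 were at least 2-fold higher and 4 lower. The median was 0.16 against 0.15 over all 12512 genes with such a region, of which 22.7% were at least 2-fold higher and 19% lower. For the AP-1 genes themselves, taken in the same way, 3 of 5 were at least 2-fold higher and the median was 1.13. Among partners that share the leucine zipper, Atf4, the amino acid stress factor, held 9 and 50 reads (2.39, 1.51 to 3.52), and Creb1 held 25 and 59 (1.20, 0.56 to 1.90). The other genes at least 2-fold higher were Atf7 (1.11) and Mmp13, whose reads were 0 and 4. Timp1, Plaur and Plau, known AP-1 targets that act in matrix proteolysis, were among those at least 2-fold lower, at -1.34, -1.22 and -1.43. The region of Creb1 was called in both libraries, those of the other genes named as higher in TGF-b only, and those of the genes named as lower in NC only.

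For siRNA over TGF-b in the T set, 26 listed genes had such a region, 4 at least 2-fold higher and 4 lower, against 23.6% and 23.3% of 12352 genes. The median was -0.24 against -0.03, and for the AP-1 genes 2 of 4 were at least 2-fold lower with a median of -1.0. Mapk3, which encodes the kinase ERK1, held 11 TGF-b reads and 40 siRNA reads (2.24, 1.39 to 3.28) and was called in siRNA only. In the S set 9 and 17 listed genes had such a region. For TGF-b over NC 0 were at least 2-fold higher and 1 lower, against 23.9% and 10.5% of genes, and for siRNA over TGF-b 2 were higher and 1 lower, against 12.6% and 12.2%. That 1 lower gene was Dusp10, a phosphatase that acts on the JUN kinases, with 35 and 13 reads (-1.31, -2.28 to -0.47), called in TGF-b only. The 2 higher genes were Mafk, with 11 and 23 reads (1.07, 0.12 to 2.15), and Plaur, with 5 and 12 (1.23, -0.07 to 2.82). Both were called in siRNA only.

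Among the 8 genes, reads summed over the libraries at the strongest TSS region were 236 for Atf3, 175 for Fosl2, 136 for Junb, 125 for Jun, 43 for Jund and 17 for Fosb, with no such region for Fosl1 and Fos. Not every gene had a value in all 6 libraries, so this order also reflects how many libraries entered. For Atf3, the genes whose strongest TSS regions had the most similar log2 ratios were Gm32655, Gzf1 and Qdpr, at Euclidean distances of 0.12, 0.13 and 0.14 over the 3 tables that hold an Atf3 TSS region, among 1922 genes. With 3 values per gene, and a TGF-b library shared by 2 of them, this likeness is a description only.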

How the data were processed

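The measurements were CUT&Tag libraries, 1 per treatment in each of 2 sets. By the methods of the study, alignment was to GRCm39 by Bowtie2 and peaks came from a tool spelled Masc2, whereas the submitters' processing notes name BWA 0.7.12 and mm10. Among 10 spans listed for these genes, 0 equalled those of GRCm38, so GRCm39 was taken. The authors deposited normalized read density, a signal of reads plus 1 per kb that they rescaled along a line fitted to peaks called in both libraries, in 4 tables normalized separately. They also deposited a p-value and a fold per region and other database columns, which were not used.

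Here the line was solved from the densities (Python 3.11.15, pandas 2.3.3, numpy 2.4.6), and between 99.97% and 99.99% of regions then came out at whole read numbers (tolerance 0.1). Reads of the TGF-b library were equal in both tables of a set in 99.98% (T) and 99.95% (S) of shared regions. The procedure was tested on simulated data. The ratio is the later library over the earlier one, as log2 of the deposited densities. Its interval is a 95% Wilson interval for the later library's share of the reads, put on the log2 scale, which has no upper bound at 0 reads and covers counting error only. PCR duplicates are not independent molecules. A region was called at 2-fold. The depth is the reads in the 2 kb window, and library totals were not used here. No test of treatment was possible with 1 library per treatment.

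For each gene and table the text names the region within 1 kb of a TSS with the highest mean density, or else the nearest one, the regions with the highest density and the largest and smallest ratio among those with at least 10 reads, and any past 4-fold with at least 20 reads. Genes and lists were chosen with earlier results of these data known. Alternatives were centring on the median of all regions, no scaling line, thresholds of 1.5-fold and 4-fold, at least 10 reads, reads of 3 or fewer set to 3, 0.1 reads added in place of 1, and regions within 1 or 3 kb of a TSS. Counting regions with overlapping windows once was chosen after seeing the data. Motifs were searched in RefSeq promoters and not in the regions, since no genome of the tables' build was used. Overlap meant at least 1 bp. Values of some listed pathway genes are not reported here.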

Additional observations from a re-analysis of the deposited data

Results flagged for a closer look

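At 3 genes the siRNA to TGF-b log2 ratio differed in sign between the sets. For Junb it was -1.16 (-1.87 to -0.54) from 74 and 23 reads of the T set, but 1.90 (0.73 to 3.46) from 5 and 20 reads of the S set. The T set region was called in TGF-b only and the S set region in siRNA only, so each entered its table through the library where it is high, and regions so called had medians of -1.42 and 0.54. The overlapping TSS regions of Atf3 gave -0.20 (T set) and 0.44 (S set). The first was called in both libraries and the second in siRNA only. Regions within 1 kb of a TSS so called had medians of -0.21 (T set) and 0.48 (S set). Different regions of Fosb, both called in siRNA only, gave 0.27 (T set) and -0.05 (S set). Both intervals included 0 at Atf3 and at Fosb. The differences between the sets were not tested, because no treatment has more than 1 library in a set and the tables were normalized separately. The T set and S set Junb regions do not overlap, although their 2 kb windows do.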

How the results depend on the processing

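No paired analysis was possible because each treatment of a set has 1 library. Of 92 alternative values for the 23 named region values, 82 lay within the counting interval and 10 outside it, all 10 under centring, and 3 changed sign, all at Fosb.

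Centring on the median of all regions gave 8 regions at least 2-fold higher and 1 lower for TGF-b over NC in the T set, and 4 and 5 for siRNA over TGF-b, whose median over the AP-1 gene regions turned to -0.11. In the S set it turned the siRNA median to 0.17. Without the authors' line the regions at least 2-fold lower were 0 for TGF-b over NC and 1 for siRNA over TGF-b in the S set. A threshold of 4-fold left 0 higher and 1 lower, then 4 higher and 0 lower (T set, in the order above), and 0 higher and 0 lower, then 0 higher (S set). A threshold of 1.5-fold gave 2 higher and 2 lower for siRNA in the S set. With at least 10 reads, the T set siRNA comparison had 3 higher and a median of -0.05. Within 3 kb of a TSS, TGF-b over NC had 1 lower (T set), and 1 higher and 0 lower (S set). For siRNA over TGF-b the T set then had 2 higher and a median of -0.20, and the S set median was 0.44. Within 1 kb, TGF-b over NC had 1 lower (T set), and 1 higher and 0 lower (S set), while siRNA over TGF-b had 0 higher with a median of -1.0 (T set) and 0 higher (S set). The median over the T set regions within 1 kb kept its sign under each change of scaling, from 0.87 to 1.52 for TGF-b over NC and from -1.97 to -1.0 for siRNA over TGF-b. Counting overlapping windows once, chosen after seeing the data, kept every count over all AP-1 gene regions within 1.5 times its main value, and moved the T set siRNA median from 0.86 to 1.45. Apart from the fewer regions that distance and read limits leave, the cause of these changes was not tested. Depth limits most values: the Fosb region of 9 and 8 reads has an interval from -1.39 to 1.26, and regions with 0 reads in the earlier library have no upper bound.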
